A study of Mus musculus with 2 samples.

Results

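Haemoglobin-dominated red cell barcodes were examined in 2 droplet single-cell RNA libraries of full-thickness back skin. A barcode, which stands for 1 droplet, was taken as a member where genes whose symbol starts with Hba- or Hbb- held over 50% of its UMIs (unique molecular identifiers, each counting 1 captured transcript). No minimum number of genes and no mitochondrial limit was applied. The rule found 116 of 5016 deposited barcodes in the wild-type (WT) library and 172 of 3348 in the Card14KI library, or 288 of 8364 in all. WT is 1 mouse labelled wild type, and Card14KI is 1 mouse labelled Card14 KI +/+, so that no difference between them has a replicate check. Both animals were on the C57BL/6 strain and 12 months old, and the skin of both was digested with enzymes for 73 min, dispersed and cleared of dead cells. CARD14 is a scaffold protein of skin cells that feeds into NF-kB signalling. Nothing in the labels says how much blood the tissue held or whether red cells were lysed. All intervals are 95% intervals and cover counting error only.

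Red cells are enucleated and packed with haemoglobin, a tetramer of paired alpha and beta chains, each holding a haem group. The young red cell, or reticulocyte, leaves the marrow with residual mRNA and ribosomes and degrades them in the circulation along with its mitochondria. Globin mRNA is stable and makes up most of what remains, and an older erythrocyte holds little RNA. In the adult mouse the alpha chains come from Hba-a1 and Hba-a2 and the beta chains, in the C57BL/6 strain, from Hbb-bs and Hbb-bt.

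The near-identity of these gene copies bears on every chain count, so the last place where each pair differs in its coding sequence is shown first. In the GENCODE vM21 transcripts (GRCm38, the assembly that mm10 names), Hba-a1 and Hba-a2 had 1 difference in 429 coding bases. It was C381T, with the base of Hba-a1 first and positions counted from 1 at the A of the start codon. Their sequences after the stop codon were identical over all 74 aligned bases, and that of Hba-a2 was annotated 16 bases longer. Hbb-bs and Hbb-bt also had 1 difference, C417T, in 444 coding bases (Hbb-bs first). Their sequences after the stop codon matched at only 72.1% of 129 aligned bases, with 36 differences. Neither coding difference changed the protein. A 3′ tag therefore had more bases with which to separate the beta pair than the alpha pair, and the split between Hba-a1 and Hba-a2 is uncertain. Each 30-base stretch is coding, in the last exon, and written 5′ to 3′ on the gene's strand, with the differing base in capitals. The 2 alpha stretches lie on the plus strand at chr11:32284329-32284358 (Hba-a1) and chr11:32297146-32297175 (Hba-a2). The 2 beta stretches lie on the minus strand at chr7:103826677-103826706 (Hbb-bs) and chr7:103812668-103812697 (Hbb-bt).
Hba-a1: catgcctctctggaCaaattccttgcctct
Hba-a2: catgcctctctggaTaaattccttgcctct
Hbb-bs: gtggctggagtggcCgctgccctggctcac
Hbb-bt: gtggctggagtggcTgctgccctggctcac

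The promoters of the 4 adult globin genes are shown because these genes held nearly all UMIs of the members, and that of Alas2 because it is the erythroid enzyme gene with the most UMIs. Each run holds the 110 bases before the RefSeq start (GRCm38.p6), 5′ to 3′ on the gene's strand. The gene spans given below are those of GENCODE and start farther upstream. The windows of Hba-a1 and Hbb-bs lie wholly within those spans, and the windows of Hba-a2, Hbb-bt and Alas2 overlap theirs in part. Capitals mark 3 short motifs. CACCC is the core of the CACCC box (GGGTG where it lies on the other strand). CCAAT is the core of the CCAAT box (ATTGG on the other strand). ATAAA is a string of TATA-like letters (TTTAT on the other strand), marked wherever it lies in the window. The windows are chr11:32283562-32283671 for Hba-a1 and chr11:32296382-32296491 for Hba-a2 (plus strand), chr7:103827929-103828038 for Hbb-bs and chr7:103813924-103814033 for Hbb-bt (minus strand), and chrX:150547307-150547416 for Alas2 (plus strand).
Hba-a1: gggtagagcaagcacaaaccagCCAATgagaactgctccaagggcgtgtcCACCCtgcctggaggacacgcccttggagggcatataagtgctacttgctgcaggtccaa
Hba-a2: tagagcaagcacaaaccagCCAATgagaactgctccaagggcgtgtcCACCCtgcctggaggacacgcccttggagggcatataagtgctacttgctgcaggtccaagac
Hbb-bs: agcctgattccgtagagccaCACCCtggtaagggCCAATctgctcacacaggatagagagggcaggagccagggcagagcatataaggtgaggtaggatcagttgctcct
Hbb-bt: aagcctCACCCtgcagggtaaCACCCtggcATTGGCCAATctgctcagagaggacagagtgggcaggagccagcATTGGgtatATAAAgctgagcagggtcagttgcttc
Alas2: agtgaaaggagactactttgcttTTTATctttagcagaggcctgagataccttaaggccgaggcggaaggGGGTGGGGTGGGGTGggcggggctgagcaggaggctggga

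CACCC and CCAAT stood in all 4 globin windows, and Hbb-bt also held ATAAA. The Hba-a1, Hba-a2 and Hbb-bs windows held the letters tataa near their 3′ end, which the string ATAAA does not match. A window without ATAAA may thus still hold a TATA-like element. Alas2 held 3 CACCC and 1 ATAAA, all on the other strand, and no CCAAT. Over 32851 promoter windows of the same length, 29.6% held CACCC, 20.2% held CCAAT, 18.9% held ATAAA and 0.840% held all 3. A match describes the letters only.

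Members and other barcodes were far apart on the measure that chose them. In WT the member with the lowest globin share stood at 62.3% of 831 UMIs and the next at 67.3% of 5343 UMIs, whereas the highest barcode outside was at 45.1% of 2615 UMIs, 39.3% of them mitochondrial. In Card14KI the lowest member stood at 72.5% of 7492 UMIs, and the 2 highest outside at 42.8% of 713 and 36.2% of 18123 UMIs. Only 8 WT and 5 Card14KI barcodes lay between 1% and 50%. Members made up 2.31% (1.91% to 2.77%) of WT and 5.14% (4.41% to 5.94%) of Card14KI barcodes. How much blood each piece of skin held was not measured, and with 1 mouse a group the genotype cannot be told apart from dissection and lysis.

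**Figure D1:**
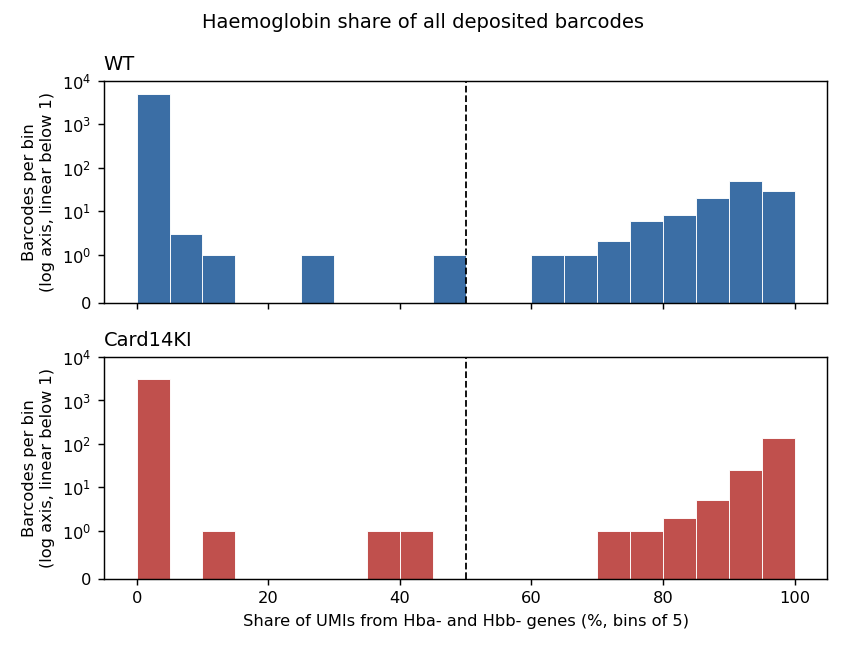
Number of deposited barcodes (log axis, linear below 1) by the share of their UMIs from Hba- and Hbb- genes, in bins of 5 percentage points, for WT and Card14KI; the dashed line is the 50% limit. Members lay at 62.3% or more in WT and 72.5% or more in Card14KI, and few barcodes lay between 1% and 50%.

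The libraries as a whole held 54816411 (WT) and 41460580 (Card14KI) UMIs, and 2 barcode sequences occurred in both, 0 of them members. Members held 348009 and 898414 UMIs, of which 92.9% and 96.3% were globin, and 97.8% and 98.5% of all globin UMIs of their libraries. The median member had 2794 UMIs (quartiles 1379 and 4270) in WT and 5602 (2603 and 7627) in Card14KI, so Card14KI members were the deeper ones. The median number of detected genes was 104 in WT and 84 in Card14KI, and 1 WT and 2 Card14KI members reached 500 genes. No member had 20% or more mitochondrial UMIs, a share of all UMIs that the globin in members keeps low. The highest was 13.9%, in a Card14KI member of 1955 UMIs, of which 383 were not globin.

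Beta-type transcripts outnumbered alpha-type ones in both libraries. Of the UMIs of the 4 adult globin genes, the alpha pair held 28.1% (28% to 28.3%) in WT and 30.02% (29.9% to 30.1%) in Card14KI. The alpha to beta ratio was thus 0.391 and 0.429. Single members spread far more widely than this difference. Their alpha share ran from 13.95% to 42.2% in WT (quartiles 24.4% and 31.7%) and from 16.1% to 60.1% in Card14KI (27.1% and 32.5%), so that the members of the libraries overlapped almost entirely. These are counts of captured 3′ ends, 1 per transcript and not divided by length, and a transcript's chance of capture was not measured.

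Hbb-bs, the major beta chain gene here (chr7:103826534-103828096, minus strand), had 208139 UMIs in WT and 519129 in Card14KI members, or 59.8% and 57.8% of all their UMIs. Hba-a1 (chr11:32283511-32284465, plus strand) had 50777 and 149831 UMIs, and its neighbour Hba-a2 (chr11:32296489-32297298, plus strand) 40135 and 109833. All 3 were found in every member of both libraries. Hba-a1 made up 55.9% (55.5% to 56.2%) of the alpha pair in WT and 57.7% (57.5% to 57.9%) in Card14KI, with a narrow spread over members (quartiles 54.0% and 58.0%, and 56.0% and 59.3%).

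Hbb-bt (chr7:103812524-103813996, minus strand) had the widest middle range of the 3 shares from member to member, with quartiles of 2.56% and 11.5% in WT and 5.69% and 16.5% in Card14KI. It had 24346 UMIs in WT and 86280 in Card14KI, and was found in 115 of 116 and 171 of 172 members. Of the beta pair it held 10.5% (10.3% to 10.6%) in WT and 14.3% (14.2% to 14.3%) in Card14KI when UMIs were summed, and 5.79% and 12.8% in the median member. Its range over members was 0% to 25.9% in WT and 0% to 26.1% in Card14KI.

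**Figure D2:**
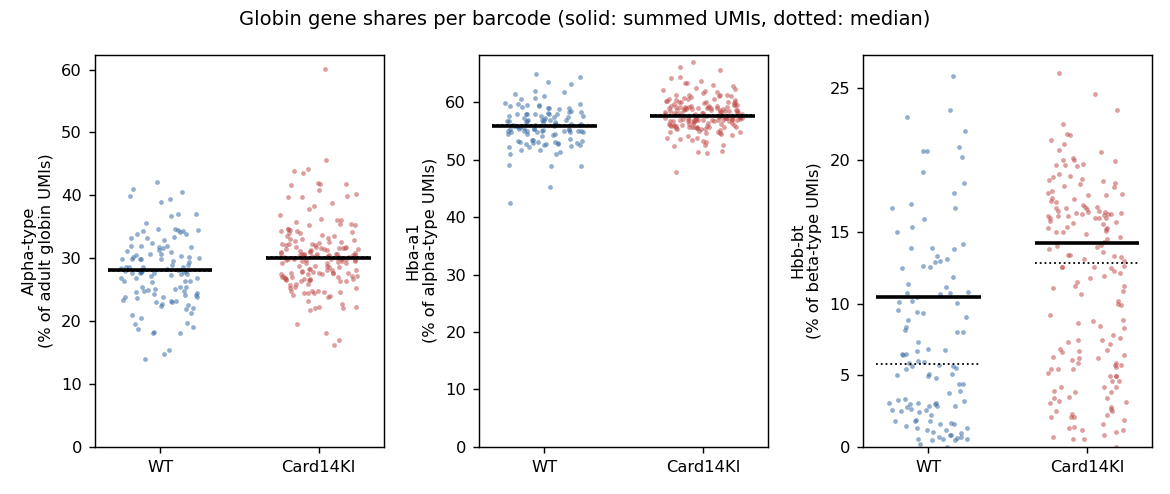
Share of each haemoglobin-dominated barcode (points) held by alpha-type genes (% of adult globin UMIs), by Hba-a1 (% of alpha-type UMIs) and by Hbb-bt (% of beta-type UMIs), in WT and Card14KI; solid lines are shares of summed UMIs and dotted lines medians. The Hba-a1 share sits in a narrow band, whereas the Hbb-bt share runs from 0% to 25.9% in WT and to 26.1% in Card14KI.

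The Hbb-bt share was higher in members with more UMIs, in both libraries. In WT it was 1.94% of the beta pair at 500 to under 1000 UMIs (19 members), 5.26% at 1000 to under 2000 (24), 6.39% at 2000 to under 4000 (37) and 13.9% at 4000 to under 8000 (35). A single WT member at 8132 UMIs stood at 23.5%. In Card14KI the same ranges gave 2.44% (10 members), 5.28% (27), 9.53% (28) and 13.7% (76), and 18.1% over 31 members with 8000 or more. At 4000 to under 8000 UMIs the shares of the libraries, 13.9% and 13.7%, were thus much closer together than over all members. At 2000 to under 4000 UMIs they stayed apart, at 6.39% and 9.53%. Across members, Spearman's rho of the Hbb-bt share with UMIs was 0.757 in WT (n = 116) and 0.747 in Card14KI (n = 172), a description of barcodes that share 1 library each. The alpha share showed no such order: rho with UMIs was 0.03 in WT and -0.06 in Card14KI.

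**Figure D3:**
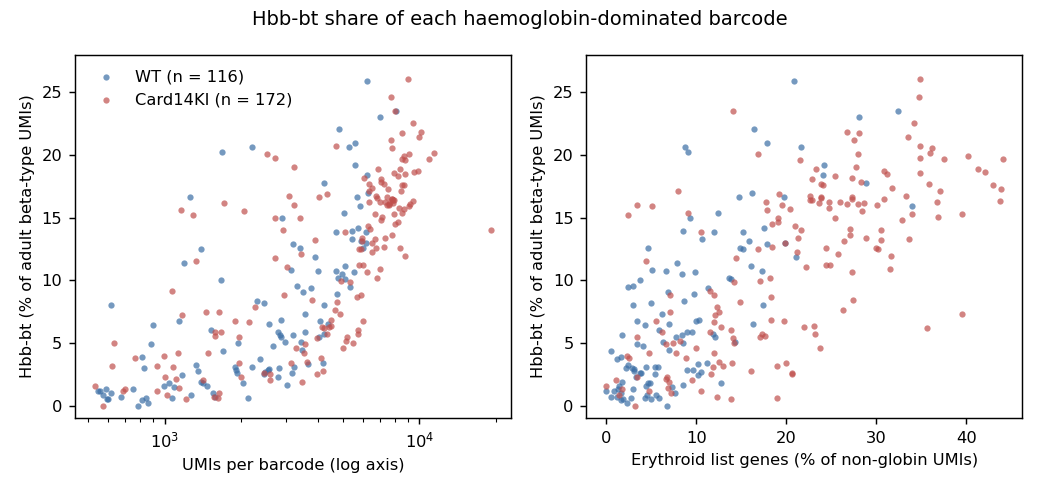
Hbb-bt as % of adult beta-type UMIs in each haemoglobin-dominated barcode, against its UMIs (left, log axis) and against the share of its non-globin UMIs from erythroid list genes (right). Both libraries slope upward in both panels, with Spearman's rho against UMIs of 0.757 (WT) and 0.747 (Card14KI).

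Globin genes outside the adult set were nearly silent. The embryonic genes Hbb-y, Hbb-bh1 and Hbb-bh2 had 0 UMIs in members of either library, and Hba-x, the embryonic alpha-type gene, had 1 UMI in WT and 0 in Card14KI. Taking 3 counts as the floor, 0 members with a UMI allows a share of up to 2.59% of WT and 1.74% of Card14KI members with a UMI, which is not a limit on members that hold the transcript. The theta-type genes, which lie next to the alpha genes, were found at a low level. Hbq1a had 7 UMIs in 7 WT and 10 in 9 Card14KI members, and Hbq1b 4 in 4 and 11 in 9.

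After globin, members held 24611 non-globin UMIs in WT and 33341 in Card14KI. Ribosomal RNA-linked features took a large part of them. Gm42418, a feature that overlaps ribosomal RNA sequence, alone held 24.9% in WT and 11.6% in Card14KI, against 1.79% and 0.628% in the reference barcodes. These reference barcodes were the 4334 WT and 2911 Card14KI barcodes outside the rule that had 500 or more genes and under 20% mitochondrial UMIs. Gm42418, AY036118 and Lars2 together held 29.1% and 15.4%. Mitochondrially encoded genes held 6.12% and 4.04%, against 3.46% and 2.92% in reference barcodes. In Card14KI a large part of these UMIs came from a few members. A member of 1955 UMIs had 13.9% of all its UMIs mitochondrial and a member of 8517 UMIs 3.39%, against a median of 0.0562%. The higher summed share in Card14KI is thus not a trait of its typical member. Genes of ribosomal proteins held 12.3% and 14.6%, below the 20.5% and 24.4% of reference barcodes. Malat1, an abundant nuclear RNA, stood at 1707 CPM (UMIs per 1000000 non-globin UMIs) in WT and 2699 in Card14KI members, below the 11454 and 10131 CPM of the reference barcodes.

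A list of 95 erythroid genes, of which 93 were matched, described what else remained. These genes held 2549 UMIs, 10.4% of non-globin UMIs, in WT members and 7612 UMIs, 22.8%, in Card14KI members, against 1.25% and 1.21% in reference barcodes. The late maturation genes held the largest part of it among the 6 lists, and the regulators of early erythropoiesis held few UMIs. Of the listed genes with 10 or more UMIs over members and reference barcodes, 42 of 81 in WT and 52 of 78 in Card14KI were over 2-fold higher in members on the scale of CPM, and 31 and 22 were over 2-fold lower. Over all genes tested the shares over 2-fold higher were 7.14% and 5.98%. Since the members were chosen from the same contrast, these counts are a description only. The 10 UMIs could all lie in reference barcodes, which held far more UMIs. A gene at 0 UMIs in members was then counted as lower however few were expected there. A few UMIs could likewise place a gene of low reference level above. This limit also holds for the counts of each list below, and no share of all genes over 2-fold lower is given. Over the members, 38 listed genes had 10 or more UMIs and 25 had 0.

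Haem synthesis rested mainly on 3 genes. Alas2, the first and rate-limiting enzyme of erythroid haem synthesis (chrX:150547375-150570638, plus strand), had 260 UMIs in 68 WT members and 849 UMIs in 144 Card14KI members. That is 58.6% and 83.7% of members, with levels of 10564 and 25464 CPM. Free RNA from lysed cells can give single UMIs in any droplet, so the share of other barcodes with Alas2 is the background. It was 0.438% and 0.481% of reference barcodes, at median depths of 7394 and 6962 UMIs. Among barcodes marked by keratinocyte genes it was 1.67% and 0.875%, and among those marked by fibroblast genes 0.0451% and 0.0724%. With each barcode thinned to 500 UMIs, Alas2 remained in 22.4% and 31.4% of members and in 0 reference barcodes of either library.

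Fech, which completes haem by inserting iron into protoporphyrin, had 54 UMIs in WT and 84 in Card14KI. Slc25a37, the mitochondrial iron importer mitoferrin-1, had 63 and 91. Of the 12 listed haem synthesis genes, 5 in WT and 6 in Card14KI were over 2-fold above reference barcodes, and 6 and 5 over 2-fold below. Alad and Uros, enzymes of the middle steps, had 0 UMIs in members.

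Iron storage transcripts were among the most abundant. Ftl1, the ferritin light chain, had 337 UMIs in WT and 707 in Card14KI (13693 and 21205 CPM), and Fth1, the heavy chain, 117 and 512 (4754 and 15356 CPM). Against reference barcodes Fth1 stood at 1.25-fold in WT and 3.90-fold in Card14KI, and skin cells are known to express it. The transferrin receptor gene Tfrc, which marks iron uptake by earlier stages, had 1 UMI in each library. Of the 8 matched genes of this list, 2 in WT and 4 in Card14KI were over 2-fold higher in members, and 4 and 3 over 2-fold lower.

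Genes of the red cell membrane and its skeleton gave 138 UMIs in WT and 434 in Card14KI. Epb41, the skeletal protein 4.1, led with 84 and 156 UMIs. Cd24a, a surface glycoprotein of young red cells, had 23 and 123 UMIs. Slc4a1, the anion exchanger band 3 and a major protein of the mature membrane, had only 6 and 9. Of this list 5 of 18 tested genes in WT and 9 of 17 in Card14KI were over 2-fold higher in members, and 11 and 7 over 2-fold lower. In all, 10 of the 24 listed had 0 UMIs in members.

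Among enzymes of red cell metabolism and of peroxide defence, Bpgm and Gpx1 had the most UMIs. Bpgm, which makes the bisphosphoglycerate that lowers the oxygen affinity of haemoglobin, had 155 UMIs in WT and 415 in Card14KI (6298 and 12447 CPM). Gpx1, the glutathione peroxidase, had 112 and 446 UMIs, 53 of those in WT in 1 member, and the peroxiredoxin Prdx2 31 and 192. Car2, a carbonic anhydrase, had 10 and 31 UMIs. Of 11 tested genes 8 in each library were over 2-fold higher in members, and 2 in WT and 3 in Card14KI over 2-fold lower. Car1, Pklr and Hk1 had 0 UMIs.

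The list of late maturation genes held the most UMIs, 1200 in WT (4.88% of non-globin UMIs) and 3631 in Card14KI (10.9%). Of 22 tested genes, 18 in WT and 21 in Card14KI were over 2-fold higher in members, and 3 and 0 over 2-fold lower. Ubb, a ubiquitin gene, had 250 and 1078 UMIs. Mkrn1, a ubiquitin ligase gene, had 150 and 476 UMIs. Bnip3l, the receptor through which reticulocytes remove mitochondria, had 67 and 211 UMIs, and the autophagy gene Map1lc3b 28 and 160. Isg20, an exonuclease gene, had 52 and 161.

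The list of erythroid regulators, with Gata1, Klf1 and Tal1, summed to 8 UMIs in WT and 9 in Card14KI. That is 0.0325% and 0.0270% of non-globin UMIs, against 0.00888% and 0.00834% in reference barcodes. Of its tested genes 4 of 10 in WT and 4 of 8 in Card14KI were over 2-fold higher in members, and 5 and 4 over 2-fold lower. Gata1 had 1 UMI in WT and 0 in Card14KI, and Klf1, Tal1, Nfe2, Epor, Gfi1b and Bcl11a had 0 in both. Cell cycle genes summed to 18 and 10 UMIs, of which Hmgb2 held 9 and 8, with Top2a, Pcna, Ccna2 and Cdk1 at 0. The list held 0.0731% (0.0434% to 0.116%) of non-globin UMIs in WT members, against 0.0527% in reference barcodes. In Card14KI it held 0.0300% against 0.0712%. At these depths a gene at 0 may still be present at up to 122 CPM in WT and 89.98 CPM in Card14KI, which are 3 counts.

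**Figure D4:**
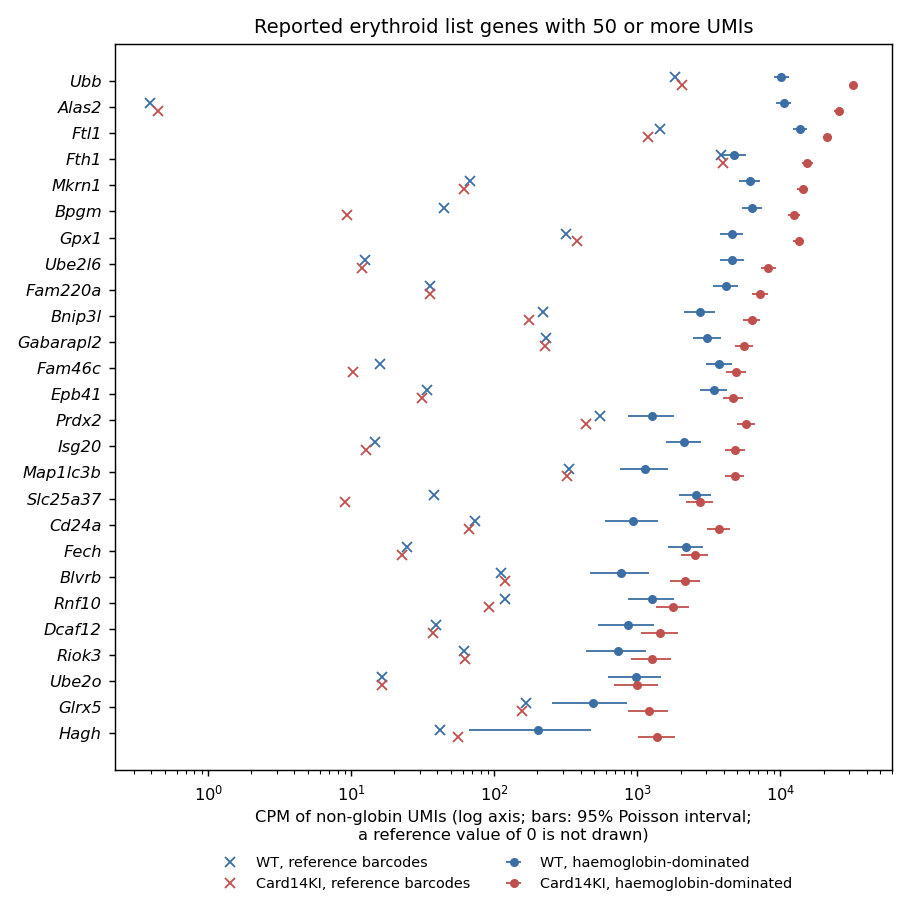
Level of each reported erythroid list gene with 50 or more UMIs over members (CPM of non-globin UMIs, log axis) in haemoglobin-dominated barcodes (points, bars are 95% Poisson intervals) and in reference barcodes (crosses, a value of 0 is not drawn), by library. Alas2 stands farthest from its reference values, and Fth1 in WT stands close to its own.

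Erythroid transcripts held more of the non-globin UMIs where the Hbb-bt share was higher. When members were ordered by that share and cut into 4 equal groups, erythroid genes held 4.14%, 5.78%, 7.66% and 19.4% of non-globin UMIs in WT, from the lowest group to the highest. In Card14KI they held 9.81%, 21.5%, 18.9% and 31.7%. The highest group was well above the others in both libraries. The members with 500 or more genes, 1 in WT and 2 in Card14KI, all lay in the third group, and without them that group stood at 9.33% in WT and 25.3% in Card14KI, so that both libraries followed the order. Of the erythroid genes with 10 or more UMIs over the outer groups, 28 of 28 in WT and 28 of 35 in Card14KI were over 2-fold higher in the highest group than in the lowest, and 0 were over 2-fold lower. Over all genes tested this held for 35.8% in WT and 40.7% in Card14KI. The highest group also had the most UMIs, so a gene low elsewhere could enter the count only through it.

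Bpgm had 8 UMIs in the lowest and 117 in the highest group of WT members, and 8 and 234 in those of Card14KI. Gpx1 had 0 and 105 in WT, where 1 member held 53 of its UMIs, and 2 and 299 in Card14KI, and Mkrn1 0 and 116, and 6 and 239. Alas2, by contrast, was already frequent in the lowest Card14KI group, with 75 UMIs against 318 in the highest, a CPM ratio of 1.41 (1.09 to 1.84) there and 4.01 (2.45 to 6.98) in WT. Median depth ran with this order, from 1043 to 5454 UMIs in WT and from 1626 to 7843 in Card14KI. Among members of 4000 to under 8000 UMIs, cut once at the median Hbb-bt share, the erythroid share was 9.79% in the lower and 19.7% in the upper group of WT, and 21.7% (20.6% to 22.9%) and 23.3% (22.5% to 24.2%) in those of Card14KI. Without the member of 500 or more genes in each library, the lower group of WT stood at 12.8% (11.8% to 13.9%) and the upper group of Card14KI at 28.7% (27.7% to 29.8%), so that the closeness of the Card14KI groups rested on 1 member. Depth was matched only in range, since the median UMIs of the lower and upper groups were 4782 and 5581 in WT and 5737 and 7116 in Card14KI. As a share of all UMIs, erythroid genes held 0.663% and 1.03% in these groups of WT and 0.511% and 0.850% in those of Card14KI. The part of depth in the result was not tested further.

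**Figure D5:**
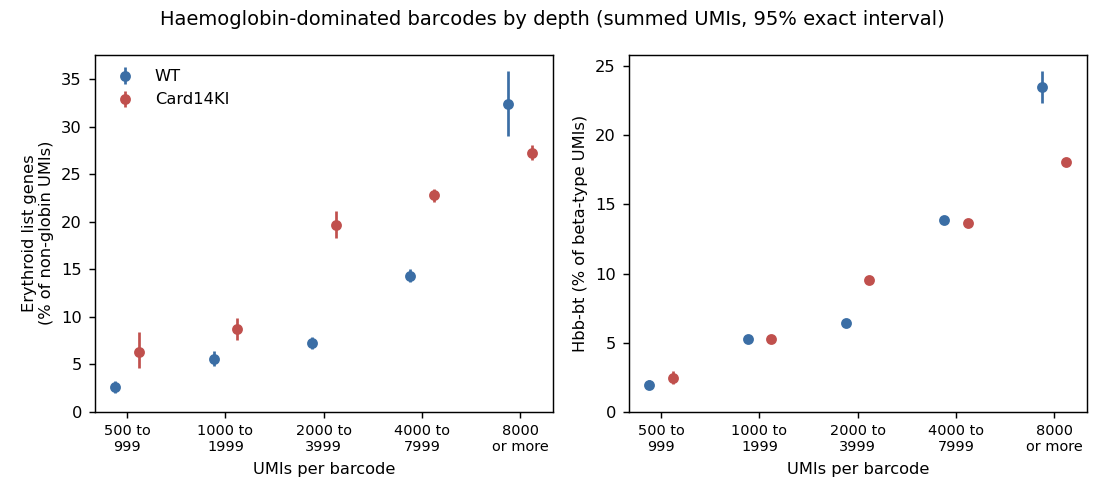
Erythroid list genes as % of non-globin UMIs (left) and Hbb-bt as % of beta-type UMIs (right), summed over members in 5 ranges of UMIs per barcode, with 95% exact intervals, for WT and Card14KI; the deepest WT range holds 1 member. The Hbb-bt shares of the libraries nearly coincide at 4000 to under 8000 UMIs, whereas the erythroid share is 14.3% in WT and 22.8% in Card14KI there.

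Between the libraries, Card14KI members had more erythroid transcripts for each non-globin UMI. Of 489 non-globin genes with 10 or more UMIs over members, 100 (20.4%) were over 2-fold higher and 59 (12.1%) over 2-fold lower in Card14KI, and the median gene differed by 0.18 on the log2 scale. Of the 38 erythroid genes among them 19 were over 2-fold higher and 0 over 2-fold lower, with a median ratio of 1.99 against 1.13 over all genes. Ubb was 3.18-fold higher (2.77 to 3.67), Fth1 3.23-fold (2.64 to 3.98) and Alas2 2.41-fold (2.10 to 2.78). Fech, at a ratio of 1.15 (0.806 to 1.65), and Slc25a37, at 1.07 (0.765 to 1.49), did not differ beyond counting error.

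The direction of such ratios depended on the scale. Without the 3 rRNA-linked features the split was 77 higher and 81 lower (48.7% of the called genes higher, against 62.9% before). For erythroid genes it was 13 and 0, with a median ratio of 1.67 against 0.95 over all genes. On CPM of all UMIs, globin included, it was 28 higher and 187 lower (13.0% higher). On that scale 7 erythroid genes were over 2-fold higher and 0 lower, with a median ratio of 1.04 against 0.594 over all genes, and 21 of the 38 lay above 1 and 17 below. As a share of all UMIs, erythroid genes held 0.732% in WT and 0.847% in Card14KI members. The lower rRNA-linked share and the greater depth of Card14KI members moved with the result, and their part in it was not tested beyond these values. At 4000 to under 8000 UMIs Alas2 stood at 2.04-fold, Ubb at 2.25-fold and Fth1 at 2.63-fold, whereas Bpgm went from 1.98-fold over all members to 0.991 and Epb41 from 1.37-fold to 0.95. In that range erythroid genes held 14.3% of non-globin UMIs in WT and 22.8% in Card14KI, and 0.855% and 0.699% of all UMIs.

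Among genes outside the lists, Rec114, known as a meiotic recombination gene, had 2 UMIs in 2 WT members and 44 in 29 Card14KI members, a ratio of 16.2 (4.24 to 138). Diaph3, a formin gene, had 0 and 21 UMIs in 16 members. It was 5.17-fold higher when 3 counts over the group stand for 0, and the interval of its ratio began at 3.84. Fam210b, which is in the late maturation list, had 0 and 14 UMIs, 3.44-fold higher by the same floor, with an interval from 2.45. Rsad2, an interferon-induced gene, had 20 UMIs in 12 WT and 72 in 34 Card14KI members, at 94.8-fold and 159-fold the reference level. Gm26870 had 46 UMIs in Card14KI, 36 of them in 1 member, and Ccl21a had 20 in WT, 16 of them in 1 member.

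Genes with higher levels in WT members included some mitochondrially encoded genes and some genes of skin cells. The respiratory chain gene mt-Nd4 had 135 UMIs in 78 WT members and 55 in 28 Card14KI members, a ratio of 0.301 (0.216 to 0.414). Over all members mt-Co1 stood at 1.13 (0.955 to 1.35). It had 224 UMIs in 96 WT members and 344 in 88 Card14KI members, 70 of the latter in 1 member. Among members of 4000 to under 8000 UMIs the ratio of mt-Co1 was 0.756 and that of mt-Nd4 0.255, both below 1. The hair follicle inner root sheath genes Tchh, Krt71 and Krt25 had 24, 19 and 11 UMIs in WT and 0 in Card14KI. By the 3-count floor these genes were 10.8-fold, 8.58-fold and 4.97-fold lower in Card14KI, with intervals from 8.15, 6.32 and 3.40. They were also far apart in the reference barcodes, at 6995, 4181 and 3230 CPM in WT and 21.5, 26.2 and 8.85 CPM in Card14KI. The collagen genes Col3a1 and Col1a1 had 23 and 17 UMIs in WT members and 2 and 1 in Card14KI members. With a 30% rule, which adds 1 WT and 2 Card14KI barcodes, the Card14KI to WT ratios turned from 0.0642 and 0.0434 to 1.60 and 2.67.

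Marker lists of other cell types summed to between 0 and 226 UMIs in the members of a library. All 10 keratinocyte markers were found, with 139 UMIs in WT (0.565% of non-globin UMIs) and 226 in Card14KI (0.678%), against 1.51% and 2.89% in reference barcodes. Of the fibroblast markers 8 of 8 in WT and 7 of 8 in Card14KI were found, with 115 UMIs (0.467%) and 43 (0.129%), against 1.95% and 0.879%. Platelet markers summed to 1 UMI of Pf4 in WT and 0 in Card14KI, with the other 8 genes at 0. Endothelial markers summed to 5 and 1 UMIs, with Pecam1, Cldn5, Kdr and Vwf at 0. Neutrophil markers summed to 2 and 7, lymphocyte markers to 1 and 8, and mononuclear phagocyte markers to 8 and 24, 18 of the latter from Cd74. As shares of non-globin UMIs these small counts were not all below the reference barcodes. Lymphocyte markers held 0.0240% in Card14KI members against 0.0118% in reference barcodes, and platelet markers 0.00406% in WT members against 0.00388%. Smooth muscle and pericyte markers held 0.00600% in Card14KI members, from 2 UMIs, against 0.00455%. Phagocyte markers in Card14KI members lay slightly below, at 0.0720% against 0.0781%. Adipocyte markers held 0.00813% in WT members, from 2 UMIs, against 0.000323%.

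Globin UMIs outside the members were few but widespread. A globin UMI was found in 26.2% of other WT barcodes and 63.7% of other Card14KI barcodes, with 7283 and 12893 UMIs in all. In these barcodes the alpha share was 24.4% (23.5% to 25.5%) in WT and 27.0% (26.3% to 27.8%) in Card14KI. In reference barcodes at or under 1% globin it was 24.6% (22.5% to 26.8%) in WT, below the share of the members, and 29.4% (28% to 30.8%) in Card14KI, an interval that holds it. The Hbb-bt share of the beta pair was 4.34% (3.82% to 4.92%) and 12.9% (12.2% to 13.6%). Most of these WT counts came from the 8 barcodes between 1% and 50% globin, which had an Hbb-bt share of 2.30%. The 5 such barcodes of Card14KI also held most of its counts and stood at 12.5%. That share rested on 1 barcode at 36.2% globin, which held 747 of their 805 Hbb-bt UMIs. Reference barcodes at or under 1% globin stood at 11.8% (9.97% to 13.8%) in WT and 13.95% (12.7% to 15.3%) in Card14KI, intervals that hold the summed shares of the members of each library.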

How the data were processed

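The authors deposited raw UMI counts for each gene in each barcode called as a cell, 1 library from each mouse. Per the labels' protocols, the 10x Genomics 3′ kit, version 3.1, was used. Cell Ranger 6.0.2 and the mm10 build are named per the submitters' processing notes, and Cell Ranger 5.0.0 per the file headers. The annotation release was not given in the sources used here. Of 31053 features, 30934 were located in GENCODE vM21.

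Members, gene lists and comparisons were chosen with earlier results of these data known. Counts were summed over members and scaled to CPM of non-globin UMIs. With 1 library a group there was no test and no p-value. Intervals are exact (Clopper-Pearson for shares, Poisson for levels, conditional binomial for ratios), at 95%, and cover counting error only. A fold over 2 in a gene with 10 or more UMIs was counted as called, and 3 counts served as the floor. No doublet caller was run. Keratinocyte-marked and fibroblast-marked barcodes are reference barcodes in which those markers held over 0.5% of UMIs and more than the other list. Thinning to 500 UMIs left out 0 barcodes of each set.

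Named genes were globin genes, list members with 10 or more UMIs, the 20 non-globin genes with the most UMIs, the 15 with the highest lower bound of the ratio of members to reference barcodes (20 or more UMIs in 5 or more members), and the 10 in each direction whose interval between libraries lay farthest from 1. Genes named at 0 or at a few UMIs (Malat1, Tfrc, Cd74, Pf4 and the zero genes of the lists) were chosen after their values were seen. Some list members are counted in the list totals but not reported here on their own. Ahsp had no match, Aldoa was shared by 2 features and left out, and Tent5c was matched as Fam46c. The list totals therefore lack Ahsp, which chaperones free alpha chains.

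Python 3.11.15, numpy 2.4.6, scipy 1.17.1, pandas 2.3.3 and matplotlib 3.10.9 were used, and the calculations were tested on simulated data. In all 12 planned and 4 added alternatives were run, covering the globin limit, gene and mitochondrial filters, the CPM denominator, the UMI minimum, medians over members, the deepest member and a depth range.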

Additional observations from a re-analysis of the deposited data

How the results depend on the processing

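No paired analysis was possible because each group had 1 library. With a limit of 30% globin, without members of 500 or more genes, under 20% mitochondrial UMIs, without the 3 rRNA-linked features or without mitochondrial UMIs, each main globin share, share of barcodes or count stayed within its counting error or, for counts, within 1.5 times its main value. The mitochondrial filter left out 0 members, so its results could not change. Leaving features out of the CPM denominator could alter only the counts of genes, not the globin or barcode shares. The limit of 30% turned Col3a1 to 1.60 and Col1a1 to 2.67 (Card14KI to WT), through the 3 added barcodes. With a limit of 70%, 38 genes were over 2-fold lower in Card14KI; with 90%, WT members were 1.56% of barcodes and the WT Hbb-bs share of the beta pair was 88.8%. With 100 or more genes, members were 1.30% (WT) and 1.79% (Card14KI) of barcodes, the alpha share 27.7% and 29.6%, and the Hbb-bs share 87.8% and 82.4%. As medians over members the alpha share was 27.9% and 30.1% and the Hbb-bs share 94.2% and 87.2%. Without the deepest member of each library the WT Hbb-bs share was 89.8%.

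On CPM of all UMIs, 16 (WT) and 21 (Card14KI) erythroid genes were over 2-fold above reference, with 28 genes higher and 187 lower in Card14KI, which follows from the globin in the denominator. With 1 or more UMIs, 2035 genes were higher and 2402 lower, and with 20 or more UMIs 14 were lower, because more or fewer genes were counted.

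The next alternatives were chosen after seeing the data, and the cause was not tested. On CPM of erythroid list UMIs, 18 and 22 erythroid genes were above reference and 23 genes were higher and 222 lower in Card14KI. The Card14KI to WT ratios of Oaz1 (0.932), Sec61g (0.991), Hbq1b (0.921) and Tspo2 (0.909) then turned below 1. Among members with 4000 to under 8000 UMIs the Hbb-bs share was 86.1% (WT) and 86.3% (Card14KI), the alpha share 29.6% and the Hba-a1 share 57.5% in Card14KI, and 59 genes were higher and 27 lower. The ratios of Car2 (0.498), Blvrb (0.862) and Tspo2 (0.534) turned below 1. Without members of 500 or more genes, erythroid genes held 10.96% (WT) and 25.1% (Card14KI) of non-globin UMIs. Over all single-gene values and settings, 707 stayed, 163 moved and 9 reversed. With 24611 and 33341 non-globin UMIs, the depth limits single genes to 122 and 89.98 CPM.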

Other observations

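The globin UMIs found in skin cell barcodes differed in their alpha split by cell class. In keratinocyte-marked reference barcodes with at most 1% globin, Hba-a1 made up 79.7% (71.9% to 86.2%) of the alpha pair in WT and 77.7% (74.3% to 80.8%) in Card14KI. In fibroblast-marked ones it was 52.8% (43.7% to 61.8%) and 59.7% (53.8% to 65.3%), and in the members 55.9% and 57.7%. The alpha share of adult globin UMIs was 37.6% (32.5% to 42.8%) and 38.0% (35.7% to 40.3%) in keratinocyte-marked and 19.9% (16.8% to 23.2%) and 22.3% (20.1% to 24.7%) in fibroblast-marked barcodes. The alpha shares rest on 354 and 1759 adult globin UMIs in keratinocyte-marked and 629 and 1301 in fibroblast-marked barcodes. The Hba-a1 shares rest on 133 and 668 alpha-type UMIs in keratinocyte-marked and 125 and 290 in fibroblast-marked barcodes.

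The keratinocyte-marked barcodes were the deeper ones, with a median of 13132 UMIs in WT and 18788 in Card14KI against 7258 and 5592 in fibroblast-marked barcodes. The Hbb-bt share of the beta pair was 9.95% (6.34% to 14.7%) and 15.6% (13.5% to 17.9%) in keratinocyte-marked and 12.3% (9.56% to 15.5%) and 13.2% (11.1% to 15.4%) in fibroblast-marked barcodes, intervals that overlap between the classes in each library.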
